A study of Mus musculus with 16 samples.

Results

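Sulfiredoxin (Srxn1) and the peroxiredoxins Prdx1 to Prdx6 were followed at the RNA level in whole mouse lung. All array probes that carry 1 of these 7 gene names were taken, which gave 15 of the 41174 non-control probes on the array and 7 of its 27703 gene names. The animals were female A/J mice, inbred and known to develop lung tumours readily, in 4 groups of 4 mice, and every group ate the AIN-76 basal diet with 0.35 ppm selenium. NNK+SECY mice received NNK, a tobacco-specific nitrosamine, as 1 intraperitoneal injection of 0.2 mL saline at 10 uM, and were fed selenocystine, an amino acid that carries selenium, at 15 ppm for 10 days starting 3 days after the injection. SECY mice received the selenocystine diet for 10 days without NNK, NNK mice received the injection and the basal diet, and Untreated mice received the basal diet. Lungs of injected mice were taken 13 days after NNK. Neither the ages of the mice nor a saline injection in SECY and Untreated mice is stated in the labels. Each array compared the RNA of 1 mouse, labelled with the red dye Cy5, with a pool made in equal parts from the 4 Untreated mice, labelled with the green dye Cy3. The value of a probe on an array is therefore log2(Cy5/Cy3), which is near 0 where a lung resembles the Untreated pool and 1 where it holds 2-fold more.

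Peroxiredoxins are abundant enzymes that remove hydrogen peroxide and organic peroxides with a cysteine in their active site. In Prdx1 to Prdx3 the oxidised cysteine forms a disulfide with a second cysteine of the partner subunit, which thioredoxin reduces. Thioredoxin reductase, a selenoprotein, recharges thioredoxin at the cost of NADPH. When peroxide is high the cysteine can be oxidised further and the enzyme is inactivated. Sulfiredoxin is the enzyme that repairs this form, so it returns these peroxiredoxins to the cycle. SRXN1, PRDX1 and TXNRD1 are known targets of the transcription factor NRF2, which binds antioxidant response elements. In lung, Prdx6 is especially abundant in the alveolar type 2 and club cells of the epithelium, and it also has phospholipase activity used in surfactant turnover.

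The promoters of Srxn1, whose RNA changed, and of Prdx1, whose RNA did not pass the test, are shown because both carry letters of the elements to which stress-response factors bind. RefSeq promoter windows (build GRCm38.p6, 250 bases before to 50 bases after the start) were matched for 6 of the 7 genes, all but Prdx6. Each line gives the 250 bases before the start, 5′ to 3′ on the plus strand. Srxn1 is at chr2:152105274-152105523 and Prdx1 at chr4:116685349-116685598. Capitals mark matches on either strand to the antioxidant response element core TGACNNNGC, to its variant TGAGNNNGC or to the AP-1 site TGAGTCA.
Srxn1: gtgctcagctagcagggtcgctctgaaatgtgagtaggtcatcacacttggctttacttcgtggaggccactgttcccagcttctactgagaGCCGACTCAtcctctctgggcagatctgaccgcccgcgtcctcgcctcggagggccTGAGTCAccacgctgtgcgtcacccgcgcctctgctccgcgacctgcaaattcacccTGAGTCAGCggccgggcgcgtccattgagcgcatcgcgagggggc
Prdx1: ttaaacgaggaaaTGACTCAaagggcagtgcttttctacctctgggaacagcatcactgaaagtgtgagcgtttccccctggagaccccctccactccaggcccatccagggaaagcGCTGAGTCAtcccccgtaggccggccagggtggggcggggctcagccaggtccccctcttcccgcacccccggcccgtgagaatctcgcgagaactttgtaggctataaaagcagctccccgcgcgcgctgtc
In Srxn1 the AP-1 letters began at positions -102 and -45 from the start, and the variant began at -158 and at -45, where it contains the AP-1 match. A core match of Srxn1 lay after the start, at position 28. In Prdx1 the AP-1 letters began at -237 and -131, and the second of these lay inside a core match that began at -133. A variant match of Prdx1 lay after the start, at position 15. The windows of Prdx2, Prdx3, Prdx4 and Prdx5 held none of the 3 motifs. Of 32851 promoter windows of this length, 12.4% held the core, 17.6% the variant and 5.2% the AP-1 site, so single matches are common, and they describe letters only.

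Srxn1 was higher in both groups fed selenocystine, by about 2.5-fold on its brightest probe, and no peroxiredoxin probe passed the test in any comparison of the fit over all 16 arrays. All 15 probes were among the 30749 that were well above background on every array of at least 1 group. With limma and Benjamini-Hochberg adjustment over all tested probes, 2 of the 15 rose in SECY against Untreated mice, where 0.283% of all tested probes passed and 0.195% passed upward. In NNK+SECY against Untreated mice, 2 of the 15 rose, where 1.44% of all tested probes passed and 0.475% passed upward. In NNK+SECY against NNK mice, 3 of the 15 rose, where 1.56% passed and 0.289% passed upward. All of these were Srxn1 probes. Of the 12 peroxiredoxin probes, limma called 0 in each of these comparisons, while 3, 2 and 4 had an unadjusted p under 0.05, beside 7.89%, 8.78% and 9.80% of all tested probes. In NNK against Untreated mice 0 of the 15 passed, where 0.211% of all tested probes passed, and none had an unadjusted limma p under 0.05. In NNK+SECY against SECY mice limma called 0 of the 15, none of them with an unadjusted p under 0.05, where 0.00651% passed. The test of whether the diet's effect differed between injected and uninjected mice also called 0 of the 15, where 0.00651% passed, and 1 of them, Prdx5, had an unadjusted p under 0.05, beside 4.56% of all tested probes. The median change over the 15 probes was 0.14 log2 units in SECY against Untreated mice, 0.10 in NNK+SECY against Untreated mice and 0.10 in NNK+SECY against NNK mice, beside 0.00 over all tested probes in each. Over the 12 peroxiredoxin probes alone the median was 0.05, 0.06 and 0.01, in the same order. The comparisons with Untreated mice share those 4 mice, and the Cy3 pool was made from them as well.

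**Figure D1:**
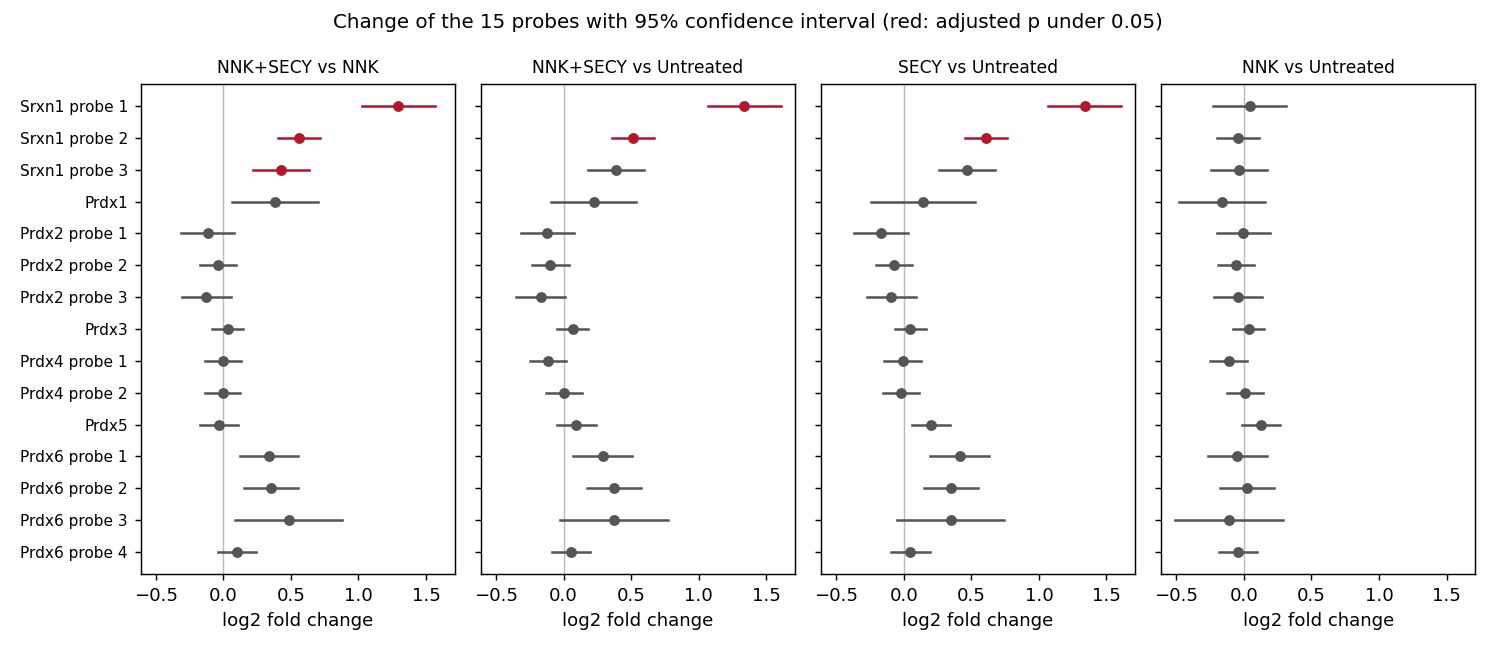
Log2 fold change of the 15 probes (rows) in 4 comparisons (panels), with points at the estimate of the limma fit and lines for its 95% confidence interval; red marks an adjusted p under 0.05. The 3 Srxn1 probes lie right of 0 in the 3 panels that compare selenocystine-fed with basal-diet mice, and no peroxiredoxin is red in any panel.

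The array holds 3 probes for Srxn1. In the coordinates of the array files, for which no build is named there or in the labels, probe 1 covers chr2:151568120-151568179, probe 2 covers chr2:151566433-151566492 and probe 3 covers chr2:151566386-151566445, so that probes 2 and 3 overlap by 13 bases and lie 1687 and 1734 bases from probe 1. Probe 1 was the brightest, with a median raw Cy5 intensity of 524 over the 16 arrays, and probes 2 and 3 were dim, at 87.3 and 73.5 over a local background of about 43.

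On probe 1 the log2 ratios were 1.20, 1.53, 1.26 and 1.71 in NNK+SECY mice, 1.61, 1.75, 1.18 and 1.15 in SECY mice, 0.21, 0.22, 0.04 and 0.04 in NNK mice, and 0.16, 0.01, 0.14 and 0.03 in Untreated mice. All 8 selenocystine-fed lungs lay far above all 8 basal-diet lungs, and within each pair of groups on the same diet the values overlapped. The group means were 1.42 ± 0.24 in NNK+SECY, 1.42 ± 0.30 in SECY, 0.13 ± 0.10 in NNK and 0.09 ± 0.08 in Untreated mice (SD, n = 4 each). Srxn1 probe 1 rose by 1.34 ± 0.13 log2 units (SE) in SECY against Untreated mice, a 2.53-fold difference with a limma adjusted p of 2.6e-05. It rose by 1.34 ± 0.13 in NNK+SECY against Untreated mice (adjusted p = 2.9e-05) and by 1.29 ± 0.13 in NNK+SECY against NNK mice (adjusted p = 5.4e-05). The spread among selenocystine-fed mice was wider than among the others, with NNK+SECY 2 and 4 and SECY 1 and 2 above 1.5 and the other 4 at or below 1.26.

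Probe 2 showed the same division between the diets at smaller size. Its log2 ratios were 0.41, 0.53, 0.47 and 0.62 in NNK+SECY mice, 0.70, 0.70, 0.64 and 0.35 in SECY mice, -0.20, 0.04, -0.03 and -0.04 in NNK mice, and 0.02, 0.00, -0.03 and -0.03 in Untreated mice. Selenocystine-fed and basal-diet lungs again did not overlap. Probe 2 rose by 0.61 ± 0.07 in SECY against Untreated mice (adjusted p = 0.00046), by 0.52 ± 0.07 in NNK+SECY against Untreated mice (adjusted p = 0.0016) and by 0.56 ± 0.07 in NNK+SECY against NNK mice (adjusted p = 0.00080).

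Probe 3 passed in 1 of these comparisons. Its log2 ratios were 0.29, 0.37, 0.06 and 0.66 in NNK+SECY mice, 0.50, 0.59, 0.33 and 0.27 in SECY mice, -0.05, -0.09, -0.19 and 0.00 in NNK mice, and -0.03, -0.11, 0.02 and -0.06 in Untreated mice. NNK+SECY 3 came within 0.06 log2 units of the basal-diet lungs, though the groups did not overlap. Probe 3 rose by 0.42 ± 0.10 in NNK+SECY against NNK mice (adjusted p = 0.032), a call that was lost on leaving out any 1 of the 8 arrays other than NNK+SECY 3 (adjusted p = 0.054 to 0.12). Its change was 0.47 ± 0.10 in SECY against Untreated mice (adjusted p = 0.053) and 0.39 ± 0.10 in NNK+SECY against Untreated mice (adjusted p = 0.062). With the signals as the scanner software had processed them, which add no offset of 50 to both dyes, the change in SECY against Untreated mice was 1.50 for probe 1, 1.22 for probe 2 and 1.01 for probe 3 (adjusted p = 0.10). The offset pulls the ratio of a dim probe toward 0 by construction, so the size of the change on probes 2 and 3 depends on the processing. Over the 16 arrays the 3 probes moved together, with Pearson r of 0.962 between probes 1 and 2, 0.931 between 1 and 3 and 0.903 between 2 and 3, which is a description of probes that share each array's RNA. These r include the difference between the diets. For the deviations from group means r was 0.630, 0.807 and 0.521, in the same order.

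**Figure D2:**
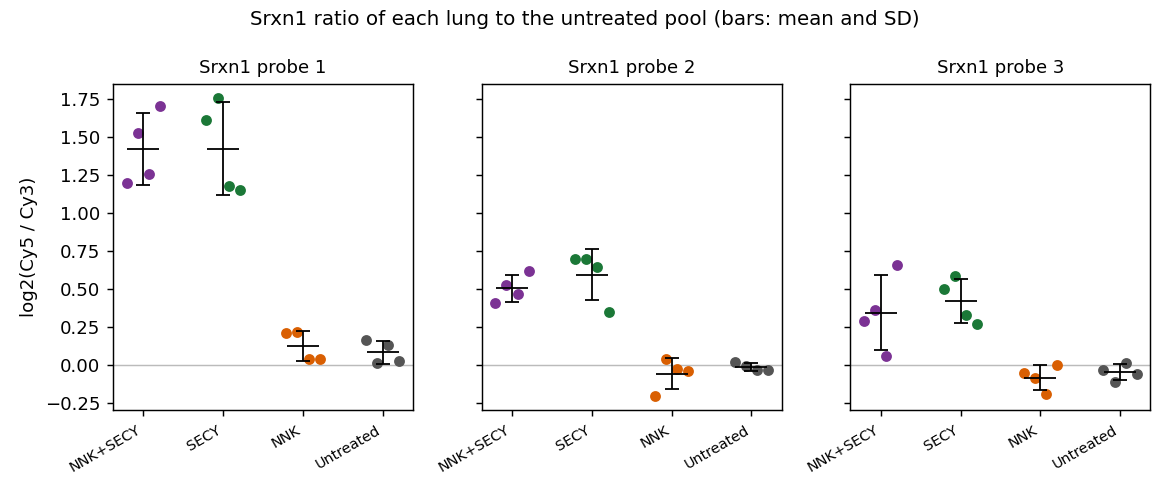
Log2(Cy5/Cy3) of the 3 Srxn1 probes (panels) on each array by group; each point is 1 mouse, horizontal bars are means and error bars SD (n = 4 each). All 8 selenocystine-fed mice lie above all 8 others on each probe, and probe 1 shows the largest separation of the 3.

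No change of Srxn1 with NNK was detected. Probe 1 changed by 0.04 log2 units in NNK against Untreated mice, with a 95% confidence interval of -0.23 to 0.31, and by 0.00 in NNK+SECY against SECY mice, with an interval of -0.27 to 0.27. The diet's effect on probe 1 in injected minus uninjected mice differed by -0.04 (adjusted p = 1.00). These intervals bound the difference between the groups, in which NNK and the scan day cannot be told apart. They do not show that an effect of NNK on Srxn1 was absent.

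The level of each dye was read separately as well. On probe 1 the Cy5 level, in log2 intensity, was 9.43 to 10.14 in NNK+SECY mice, 9.31 to 10.23 in SECY mice, 8.14 to 8.41 in NNK mice and 8.15 to 8.47 in Untreated mice. The Cy3 level of the pool, which is the same RNA on every array, was 8.17 to 8.44 on the NNK+SECY arrays, 8.16 to 8.49 on the SECY arrays, at most 8.19 on the NNK arrays and 8.13 to 8.30 on the Untreated arrays. The arrays with the highest Cy5 level (SECY 1 and 2, NNK+SECY 2 and 4) also had the highest Cy3 level. On Cy5 alone the change of probe 1 was as large as on the ratio, at 1.47 in SECY against Untreated mice and 1.47 in NNK+SECY against NNK mice.

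**Figure D3:**
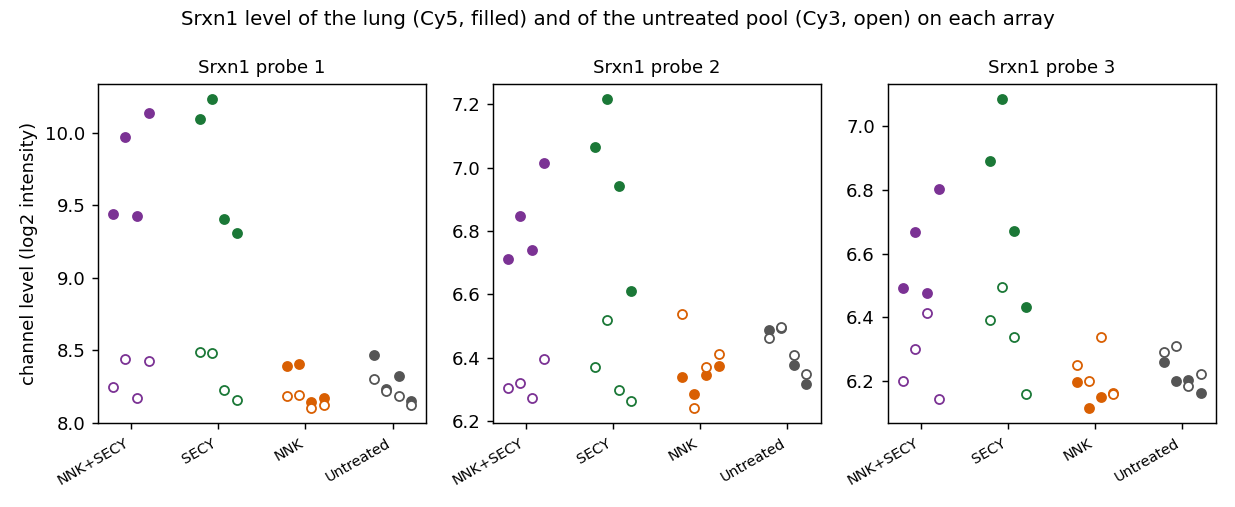
Channel level (log2 intensity) of the 3 Srxn1 probes on each array by group, filled for the lung in Cy5 and open for the Untreated pool in Cy3; the vertical scale differs between panels. On probe 1 the filled points of the selenocystine-fed groups lie at 9.31 or above, while every open point lies at 8.49 or below.

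Prdx1 and Prdx2 are the peroxiredoxins of the cytosol and nucleus, and Prdx1 is the classical partner of sulfiredoxin. The spot of the single Prdx1 probe was marked as an outlier by the scanner software on SECY 1 and SECY 4 and was left out there, so SECY has 2 values. The log2 ratios were -0.05, 0.01, -0.08 and -0.04 in NNK+SECY mice, 0.38 and -0.62 in SECY 2 and 3, -0.46, -0.47, -0.37 and -0.40 in NNK mice, and -0.04, -0.31, -0.43 and -0.28 in Untreated mice. The SECY values lay above and below every other mouse, while NNK+SECY mice were tightly grouped above all 4 NNK mice. The change was 0.38 ± 0.15 in NNK+SECY against NNK mice, with a 95% confidence interval of 0.07 to 0.70 and a limma adjusted p of 0.36 in the fit over all groups, to whose shared spread the 2 SECY values contribute. With only the 8 arrays of those groups in the fit, the same difference had an adjusted p of 0.00058. On Cy5 alone it was 0.25. In SECY against Untreated mice the change was 0.14 ± 0.18 (adjusted p = 0.93), and 0.26 with both marked spots kept, whose values were 0.19 and 0.04. Without SECY 3 it was 0.64 (adjusted p = 0.014), a value that rests on SECY 2 alone, with its spread assumed to be that of the other groups. In NNK+SECY against Untreated mice it was 0.22 ± 0.15 (adjusted p = 0.78), and on Cy5 alone -0.07.

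Prdx2, the peroxiredoxin of red blood cells and other cells, was read by 3 probes, of which probe 1 was printed 10 times on each array. On probe 1 the log2 ratios were -0.02, -0.08, -0.13 and -0.29 in NNK+SECY mice, -0.15, -0.30, 0.00 and -0.27 in SECY mice, 0.02, 0.09, -0.01 and -0.16 in NNK mice, and -0.15, 0.21, -0.20 and 0.10 in Untreated mice. The groups overlapped throughout. The SD between the repeated spots within an array was 0.04 to 0.10. The SD between mice was 0.20 in Untreated, 0.14 in SECY, 0.12 in NNK+SECY and 0.11 in NNK mice. The value of a mouse is a mean over 8 to 10 spots, so these SDs are not directly comparable with that of single spots. The 9 changes of the 3 Prdx2 probes in the 3 comparisons of selenocystine-fed with basal-diet mice ran from -0.17 to -0.04, and none passed. On Cy5 alone probe 1 was lower by 0.35 in SECY against Untreated mice (adjusted p = 0.041), against a ratio change of -0.17 (adjusted p = 0.73). That setting called 23.5% of all tested probes in this comparison. Of 7 listed markers of red blood cells, 3 were tested, and their median change was -0.32 in SECY against Untreated mice, -0.13 in NNK+SECY against Untreated mice and -0.48 in NNK+SECY against NNK mice, with 0 called in each by limma and none at an unadjusted p under 0.05. Their summed Cy5 intensity spanned 50878 to 52324 in NNK+SECY, 41133 to 60526 in SECY, 50116 to 60485 in NNK and 44776 to 64383 in Untreated mice. The part of red blood cells in the Prdx2 values was not tested. In whole lung, fewer cells of a type and less RNA per cell cannot be told apart.

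Prdx3, the mitochondrial member, stayed close to the pool on every array. Its log2 ratios were 0.08, 0.03, 0.06 and 0.03 in NNK+SECY mice, -0.06, 0.13, 0.09 and -0.02 in SECY mice, 0.04, -0.10, 0.08 and 0.05 in NNK mice, and 0.07, -0.03, 0.00 and -0.10 in Untreated mice. All 4 groups overlapped, and the change was 0.05 in SECY against Untreated mice, with a 95% confidence interval of -0.07 to 0.16.

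Prdx4, the member of the endoplasmic reticulum and the secretory path, was read by 2 probes. On its brighter probe 1 the log2 ratios were -0.24, -0.22, -0.10 and -0.37 in NNK+SECY mice, -0.06, -0.15, -0.12 and -0.18 in SECY mice, -0.16, -0.36, -0.15 and -0.26 in NNK mice, and -0.03, -0.20, -0.19 and -0.05 in Untreated mice. In each comparison made the groups overlapped, and the change was -0.11 in NNK against Untreated mice (95% confidence interval -0.25 to 0.02) and -0.11 in NNK+SECY against SECY mice (-0.24 to 0.03). Probe 2, dim but well above background on all 16 arrays, gave 0.01 and 0.02 for these comparisons.

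Prdx5, found in mitochondria, peroxisomes and cytosol, had log2 ratios of -0.18, -0.19, -0.09 and -0.14 in NNK+SECY mice, -0.15, -0.16, 0.10 and 0.01 in SECY mice, -0.01, -0.03, -0.27 and -0.17 in NNK mice, and -0.28, -0.21, -0.20 and -0.32 in Untreated mice. The Untreated mice lay below all SECY and all NNK+SECY mice, though Untreated 3 at -0.196 and NNK+SECY 2 at -0.194 were all but equal. The change in SECY against Untreated mice was 0.20 ± 0.07 (95% confidence interval 0.06 to 0.34, adjusted p = 0.32). The level of the lungs in Cy5 changed by -0.09 in that comparison and the level of the pool in Cy3, the same RNA on every array, by -0.29, so that the higher ratio did not go with a higher Cy5 level.

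**Figure D4:**
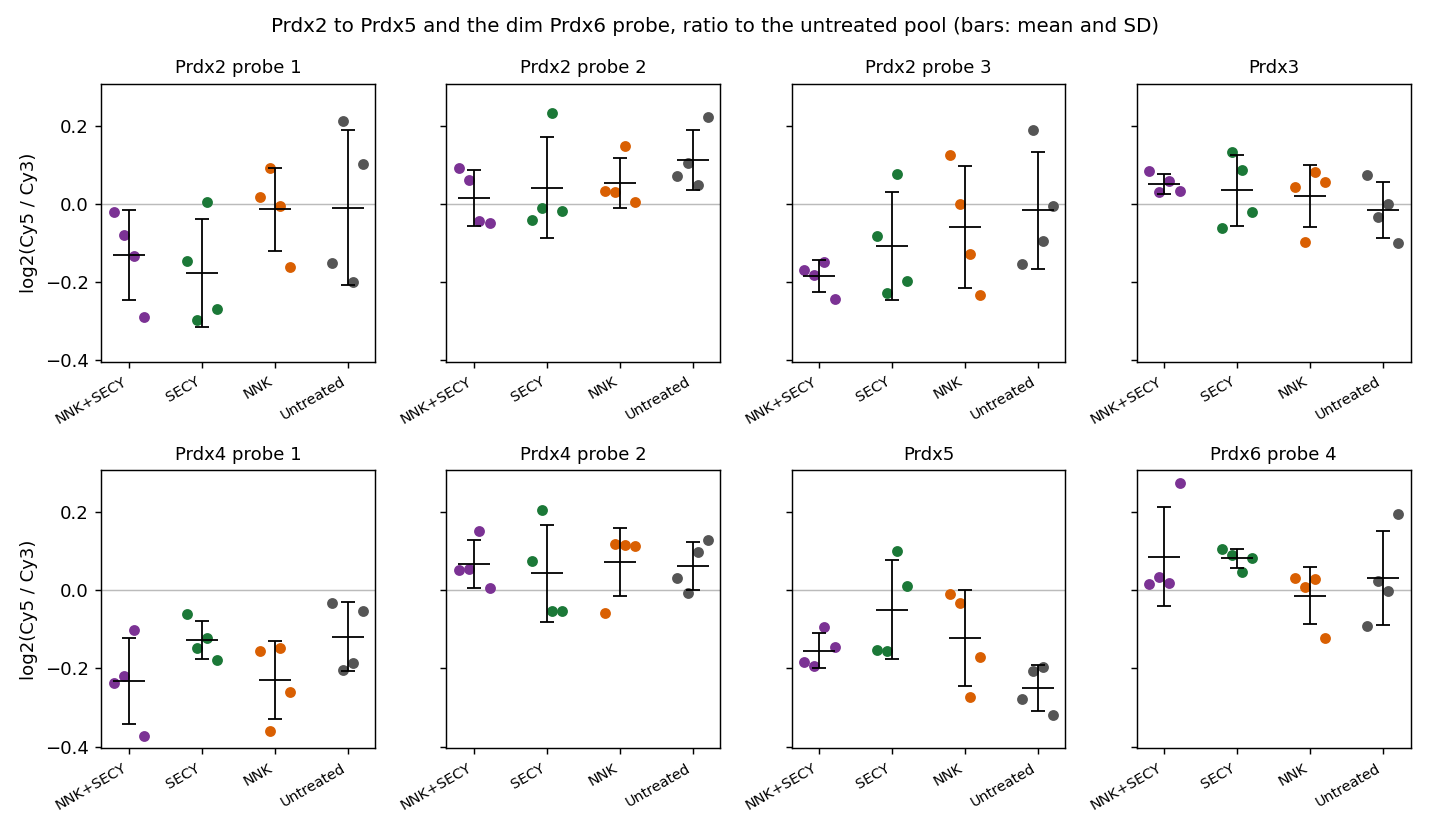
Log2(Cy5/Cy3) of the Prdx2, Prdx3, Prdx4 and Prdx5 probes and of the dim Prdx6 probe 4 (panels) on each array by group; points are mice, horizontal bars means and error bars SD (n = 4 each). Selenocystine-fed and Untreated mice overlap on each of these probes except Prdx5, where all selenocystine-fed mice lie above the 4 Untreated mice. There Untreated 3 at -0.196 and NNK+SECY 2 at -0.194 are all but equal.

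Prdx6, the member with a single active cysteine, was read by 4 probes, of which probe 1 had a median raw Cy5 intensity of 25817 and was saturated on no array. On probe 1 the log2 ratios were 0.28, 0.45, 0.10 and 0.37 in NNK+SECY mice, 0.37, 0.39, 0.38 and 0.56 in SECY mice, -0.15, -0.09, 0.14 and -0.05 in NNK mice, and -0.34, 0.05, 0.22 and 0.11 in Untreated mice. SECY mice lay above all basal-diet mice, whereas NNK+SECY 3 lay within their range. The change was 0.42 ± 0.10 in SECY against Untreated mice (95% confidence interval 0.20 to 0.63, adjusted p = 0.12), 0.29 ± 0.10 in NNK+SECY against Untreated mice (adjusted p = 0.31) and 0.34 ± 0.10 in NNK+SECY against NNK mice (adjusted p = 0.17).

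Probe 2 gave log2 ratios of 0.34, 0.44, 0.06 and 0.36 in NNK+SECY mice, 0.10, 0.27, 0.37 and 0.35 in SECY mice, -0.14, -0.05, 0.04 and -0.07 in NNK mice, and -0.37, 0.05, -0.01 and 0.02 in Untreated mice. All selenocystine-fed mice lay above all basal-diet mice on this probe, NNK+SECY 3 and Untreated 2 being only about 0.01 apart. Its change was 0.35 ± 0.10 in SECY against Untreated mice (adjusted p = 0.17), 0.37 ± 0.10 in NNK+SECY against Untreated mice (adjusted p = 0.069) and 0.35 ± 0.10 in NNK+SECY against NNK mice (adjusted p = 0.091). Without NNK+SECY 3 the last 2 were 0.45 (adjusted p = 0.027) and 0.43 (adjusted p = 0.024). The array file lists more than 1 transcript for probe 2, so its signal cannot be assigned to Prdx6 alone.

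Probe 3 had log2 ratios of 0.35, 0.53, -0.11 and 0.47 in NNK+SECY mice, 0.21, 0.33, 0.39 and 0.22 in SECY mice, -0.57, 0.10, 0.08 and -0.30 in NNK mice, and -0.67, 0.24, 0.21 and -0.02 in Untreated mice. In each comparison made the groups overlapped, and NNK 1 and Untreated 1, which share a slide barcode, were the lowest of all 16. Probe 3 changed by 0.35 ± 0.19 in SECY against Untreated mice (adjusted p = 0.71) and by 0.48 ± 0.19 in NNK+SECY against NNK mice (adjusted p = 0.36). Probe 4 was dim, well above background on 13 of 16 arrays and on 1 of 4 in the NNK group, and changed by 0.05 to 0.10 in the 3 comparisons of selenocystine-fed with basal-diet mice. Over the 16 arrays, r was 0.920 between probes 1 and 2, 0.853 between 1 and 3 and 0.883 between 2 and 3. For the deviations from group means r was 0.858, 0.804 and 0.852, so these probes also shared the spread between arrays of 1 group.

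**Figure D5:**
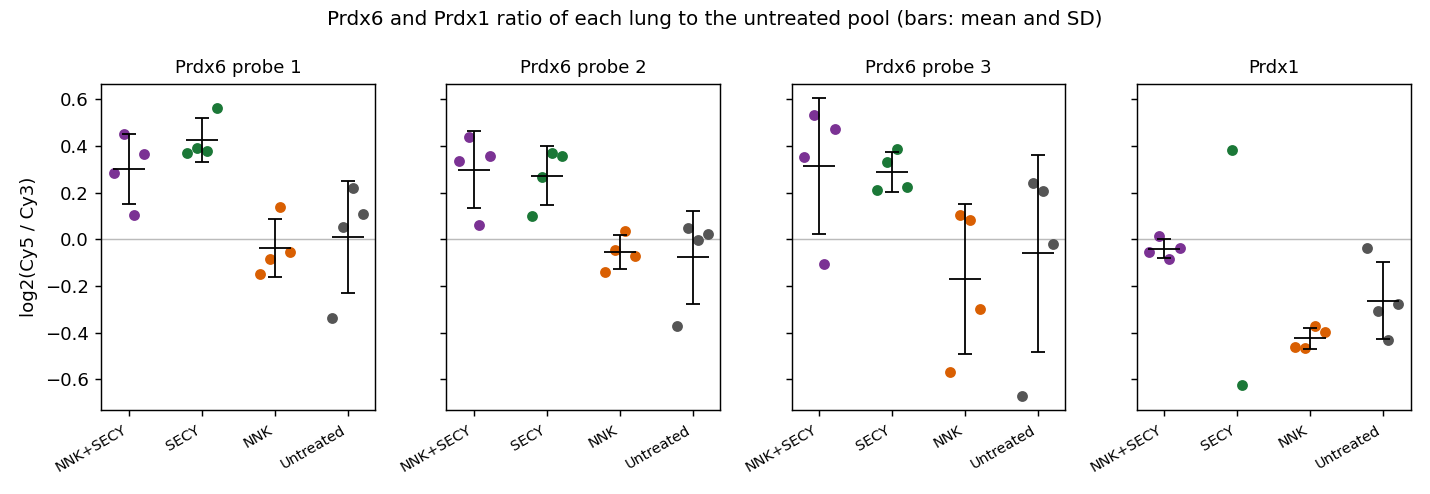
Log2(Cy5/Cy3) of Prdx6 probes 1 to 3 and of Prdx1 (panels) on each array by group; points are mice, horizontal bars means and error bars SD (n = 4, with no bar for Prdx1 in SECY, where n = 2). On Prdx6 probe 2 all 8 selenocystine-fed mice lie above all 8 basal-diet mice, with NNK+SECY 3 at 0.06, and on Prdx1 the 4 NNK+SECY mice lie between -0.08 and 0.01.

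Counted as groups without overlap, 6 of the 15 probes lay wholly higher in SECY than in Untreated mice (the 3 of Srxn1, Prdx5 and Prdx6 probes 1 and 2), where 1.79% of all tested probes did. In NNK+SECY against Untreated mice it was 5 of the 15 (the 3 of Srxn1, Prdx5 and Prdx6 probe 2) with 3.14% of all tested probes, and in NNK+SECY against NNK mice 5 of the 15 (the 3 of Srxn1, Prdx1 and Prdx6 probe 2) with 3.52%. In NNK against Untreated mice it was 0, with 2.37%, and in NNK+SECY against SECY mice 0, with 1.6%. Several of these probes read the same gene and are not independent.

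A list of 26 genes held partners of the cycle together with other genes, such as Nqo1, Gclm, Hmox1 and Cat. It was chosen with earlier results of these data known, so its counts are descriptions. All 26 were tested on 1 probe each. Of these, 4 rose in SECY against Untreated mice, 5 in NNK+SECY against Untreated mice and 5 in NNK+SECY against NNK mice, and 0 fell. In the same order, 0.195%, 0.475% and 0.289% of all tested probes passed upward. In NNK against Untreated and in NNK+SECY against SECY mice limma called 0 of the 26, with 1 at an unadjusted p under 0.05 in each, beside 4.76% and 6.08% of all tested probes. The median change of the 26 was 0.10 in SECY against Untreated mice, 0.04 in NNK+SECY against Untreated mice and 0.04 in NNK+SECY against NNK mice. Txnrd1, the cytosolic thioredoxin reductase, rose by 0.81 ± 0.09 in SECY against Untreated mice (adjusted p = 0.00017) and by 0.79 ± 0.09 in NNK+SECY against NNK mice (adjusted p = 0.00023). Txn1, the cytosolic thioredoxin, changed by 0.43 ± 0.11 (adjusted p = 0.13) and 0.34 ± 0.11 (adjusted p = 0.21). For mitochondria, Txnrd2 gave 0.11 and -0.07, and Txn2 gave -0.07 and -0.03, in the same order. Among the others called, in SECY against Untreated mice, Nqo1, a quinone reductase, rose by 1.43, Gpx2, a selenium-dependent glutathione peroxidase, by 1.08 and Gstp1, the glutathione transferase that reactivates Prdx6, by 0.86. Gclm, the modifier subunit of the enzyme that limits glutathione synthesis, rose by 0.39 in NNK+SECY against NNK mice (adjusted p = 0.043) and gave 0.37 in SECY against Untreated mice (adjusted p = 0.12). Hmox1, another gene known to answer to NRF2, gave -0.04 in SECY against Untreated mice.

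Among 24240 other probes with a named gene, the 5 genes whose log2 ratios followed Srxn1 probe 1 most closely over the 16 arrays were Txnrd1 (r = 0.992), Gstp1 (0.976), Nqo1 (0.976), Gsta1 (0.950) and Aox1 (0.944). For the deviations from group means, r was 0.898 for Txnrd1, 0.651 for Gstp1, 0.643 for Nqo1, 0.312 for Gsta1 and 0.309 for Aox1. Txnrd1 thus also tracked which arrays of a group had the higher Srxn1 ratio. With 1 array a mouse, mouse and array cannot be told apart. Peroxiredoxins followed it less closely, with r of 0.747 and 0.752 for Prdx6 probes 1 and 2 that became -0.08 and -0.18 within groups, and 0.635 for Prdx1 over 14 arrays, which remained 0.634 within groups. The 5 genes closest to Prdx1 over those 14 arrays were Cyb5a (r = 0.947), Senp6, Dnaja2, Bzw1 and Vmp1 (0.924), none of them among the 5 closest to Srxn1. All of these values share the arrays' RNA, labelling and Cy3 pool, and they are descriptions.

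The slides and scan days follow the groups. Per the file headers each slide barcode was given to 2 arrays: slides 1 to 4 held the Untreated and NNK arrays of the same number and slides 5 to 8 the SECY and NNK+SECY arrays. NNK and NNK+SECY arrays were scanned on 1 day, and Untreated and SECY arrays on the other. Each barcode thus stands on 2 arrays read on different days, while the printed grid of 1 array measures 45.4 by 19.3 mm, so whether both arrays lay on 1 physical slide was not established, and values within slides rest on the headers alone. The diet and the slide set thus cannot be told apart, and neither can NNK and the scan day. Spots well above background in Cy5 made up 75.0% to 79.3% on slides 5 to 8 and 66.3% to 72.6% on slides 1 to 4. Within slides, Srxn1 probe 1 differed by -0.41 to 0.56 between the NNK+SECY and SECY arrays and by -0.10 to 0.20 between the NNK and Untreated arrays. Against the label of whole lung, 8 of 8 listed markers of alveolar type 2 cells and 6 of 6 of club cells were well above background and tested. Limma called 0 of them in any comparison. At an unadjusted limma p under 0.05 were 2 and 0 in SECY against Untreated mice, 4 and 1 in NNK+SECY against Untreated mice and 0 and 0 in NNK+SECY against NNK mice. The shares of all tested probes at that level were 7.89%, 8.78% and 9.80%. In the same order, the type 2 markers had median changes of -0.15, -0.08 and -0.04, with 1, 2 and 2 of the 8 above 0. The club markers had medians of -0.03, -0.10 and -0.04. Summed Cy5 intensity of the alveolar type 2 genes spanned 111847 to 124537 in NNK+SECY, 114381 to 127543 in SECY, 120321 to 126605 in NNK and 118513 to 133650 in Untreated mice, and the part of such shifts in the Prdx6 values was not tested. Markers of ciliated cells (7 of 8 tested) had median changes of 0.08 in SECY against Untreated mice, 0.24 in NNK+SECY against Untreated mice and 0.03 in NNK+SECY against NNK mice, and those of skeletal muscle (6 of 6 tested) -0.10, 0.33 and 0.41. Limma called 0 of either list, with 0, 3 and 0 ciliated and 0, 1 and 2 muscle genes at an unadjusted p under 0.05, beside 7.89%, 8.78% and 9.80% of all tested probes. The part of these lists in the results was not tested.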

How the data were processed

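Lung RNA of 16 mice was measured on 16 2-colour Agilent arrays without dye swap. The authors deposited scanner files of Feature Extraction 8.1.1.1, from which the raw mean and background intensity of both dyes were used. The deposited processed signals are intensity values which per the file headers were spatially detrended and dye-normalized (linear and lowess). The deposited LogRatio is log10 of Cy5 over Cy3, and the value table that the authors supply equals it on the log2 scale within 0.005. For the probe coordinates, neither the headers nor the labels name a genome build.

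In R 4.3.3 with limma 3.58.1 (files read with data.table, version 1.17.8), normexp with an offset of 50 and loess within each array were applied, control spots and spots marked as outliers were left out, and spots of a probe were averaged. A probe was tested if 1 or more groups had it well above background on all 4 Cy5 channels, using lmFit and eBayes over all 16 arrays; p-values were adjusted by Benjamini-Hochberg over all tested probes, with a threshold of 0.05. Intervals are 95%. Channel levels follow loess and Aquantile scaling. Per the labels a group holds 4 biological replicates, and that number limits the precision.

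Text names all probes of the 7 genes. Of the 26 genes listed with the partners, it names those called in the comparison named plus Txn1, Txn2, Txnrd1 and Txnrd2. Hmox1 was added after its values were seen. For likeness, the 5 genes with the highest r were named. Gene names were updated through RefSeq by accession for 22072 probes, by symbol for 6280 and by synonym for 4226, and 8596 kept the file's name. The members, lists and motifs were chosen with earlier results of these data known. Neither probe nor protein sequences were used here. Alternatives covered background correction, normalization, dim-probe filters, probes per gene, arrays in the fit, array weights, Cy5 alone, slide and replicate blocks and leaving out each array; keeping the marked spots was chosen after seeing the data.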

Additional observations from a re-analysis of the deposited data

Results flagged for a closer look

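In 7 of 59 sets of 4 arrays, the highest or lowest lung stood apart from the other 3 by more than Dixon's 95% critical value allows, where chance gives about 1 in 20. Srxn1 probe 2 was low in SECY 4, at 0.349, beside 0.64 to 0.70 in the other SECY mice. Prdx6 probe 1 was high in SECY 4, at 0.564, and Prdx6 probe 2 was low in Untreated 1, at -0.374, the mouse that was also lowest of its group on Prdx6 probes 1 and 3. Prdx2 probe 2 was high in SECY 3, at 0.233. The remaining sets were, like that of Srxn1 probe 2, on dim probes: Prdx4 probe 2 was low in NNK 1, at -0.0588, and Prdx6 probe 4 was high in NNK+SECY 4, at 0.275, and low in NNK 4, at -0.122.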

How the results depend on the processing

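Srxn1 probe 1 passed under all 20 alternatives, and Srxn1 probe 2 under all 19 that gave it a value, in each of the 3 comparisons of selenocystine-fed with basal-diet mice; the values ran from 1.20 to 1.50 for probe 1 and from 0.41 to 1.22 for probe 2. Srxn1 probe 3 passed under 5 of 18 in SECY against Untreated, 4 of 18 in NNK+SECY against Untreated and 10 of 18 in NNK+SECY against NNK, where its adjusted p reached 0.12, so it sits at the threshold. No change of direction past a threshold was seen. With 1 probe a gene, only the brightest probe of each gene was in the fit, so Srxn1 could give at most 1 call. The count of member probes called was then 1, Srxn1 probe 1, in each of these 3 comparisons. In that setting 0.278%, 1.60% and 1.75% of all tested probes passed. With array weights the count was 4 in NNK+SECY against Untreated and 6 in NNK+SECY against NNK, adding Srxn1 probe 3 and Prdx6 probe 2 in the first, and Prdx1 and Prdx6 probes 1 and 2 in the second, where 2.18% and 2.30% of all tested probes passed. With only the 8 arrays compared it was 4 in NNK+SECY against NNK, adding Prdx1 and Prdx6 probe 2 and losing Srxn1 probe 3, where 1.90% of all passed. On Cy5 alone it was 5 in SECY against Untreated, adding Srxn1 probe 3, Prdx6 probe 1 and, lower, Prdx2 probe 1, where 23.5% of all passed, and 4 in NNK+SECY against NNK, adding Prdx6 probe 2, where 7.42% passed. Prdx6 probe 2 passed in NNK+SECY against NNK under 4 of 19 alternatives and in NNK+SECY against Untreated under 3 of 19. The cause was not tested. Leaving out each array in turn gave 2 to 4 in each of the 3 comparisons, and 0 to 0 in NNK against Untreated, in NNK+SECY against SECY and for the difference between diet effects. In SECY against Untreated the 4 came without SECY 3, adding Srxn1 probe 3 and Prdx1, for which 1 SECY array was left. In NNK+SECY against Untreated the 4 came without NNK+SECY 3, adding Srxn1 probe 3 and Prdx6 probe 2, and in NNK+SECY against NNK also without NNK+SECY 3, adding Prdx6 probe 2. In these 3 cases 0.407%, 1.00% and 1.37% of all tested probes passed, in the order given.

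Correlations of same-numbered arrays ran from -0.02 to 0.43 in NNK and Untreated (3 of 4 over 0.1), from -0.09 to 0.49 in SECY and Untreated (3 of 4), from 0.01 to 0.20 in NNK+SECY and Untreated (1 of 4), from -0.13 to 0.25 in NNK+SECY and NNK (1 of 4) and from -0.09 to 0.30 in NNK+SECY and SECY (1 of 4), so the numbers were not taken to pair the mice. With a replicate block the counts called were 3 in SECY against Untreated (adding Srxn1 probe 3), 3 in NNK+SECY against Untreated (adding Prdx6 probe 2, adjusted p = 0.042), 3 in NNK+SECY against NNK and 0 in the others. With the slide as a random block they were 2, 2 and 3. Over all tested probes, the number called ranged from 35 (only the arrays compared) to 7217 (Cy5 alone) in SECY against Untreated, from 233 to 4860 in NNK+SECY against Untreated, from 363 to 2280 in NNK+SECY against NNK, and from 18 to 495 in NNK against Untreated.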
